A study of Neurospora crassa with 6 samples.

Results

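The Δ*mak-1* mutant was compared directly with the Δ*mak-2* mutant of *Neurospora crassa* at the protoperithecial stage. Thus 2 strains lacking different MAP kinase genes were read against each other with no wild-type library in the ratio. All table entries above 10 RPKM in at least 1 of the 2 libraries were taken, which gave 6292 of 9872 entries. RPKM is the read number of a gene scaled by exon length and library size. The Δ*mak-1* mutant lacks the MAP kinase gene of cell wall integrity (CWI) signalling, and the Δ*mak-2* mutant lacks that of the pheromone response (PR) pathway. Both mutants, and the wild type beside them, stood on cellophane-covered synthetic crossing medium with 0.1% sucrose, which induces female structures, and stayed there for 3.5 days at 25°C without light. The same 3 strains were also sampled as vegetative hyphae from liquid Vogel's medium (28°C, 22 h). RNA of 3 repeats was mixed before sequencing. Each condition was therefore 1 library, no difference below has a replicate check in these libraries, and no p-value is given. Some genes, *fsd-1* and *scy-1* among them, were also measured by the study with quantitative PCR, each mutant against the wild type.

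A MAP kinase cascade passes a signal through 3 kinases that phosphorylate each other in turn, and the last of them, the MAP kinase, acts on transcription factors and other proteins. In *N. crassa* the PR pathway is best known for the fusion of germinating conidia and hyphae and for mating, and the CWI pathway for the response to a weakened wall. Mutants in either are female sterile. A protoperithecium is the young female fruiting body, a knot of hyphae inside a melanised wall, and the stage is named here after the wild type.

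The protoperithecial markers were low in both mutants, but this was fixed by their choice. The study lists all of them among genes it drew from these same libraries as lower in both mutants. The summed level of *poi-2*, *app*, *per-1*, *tnr-1*, *tnr-2* and *mld-1* was 85.1 RPKM in Δ*mak-1*, 92.2 in Δ*mak-2* and 4372 in the wild type. Of these *poi-2*, a gene named for its abundance in fruiting bodies, had 3.84 RPKM in Δ*mak-1*, 2.51 in Δ*mak-2* and 2072 in the wild type. The summed level of 5 conidial markers (*con-6*, *con-8*, *con-10*, *eas*, *fl*) was 15815 RPKM in Δ*mak-1*, 17061 in Δ*mak-2* and 913 in the wild type. The conidial sums hide single markers that differed between the mutants in opposite directions, such as *eas* and *con-10*, given below. Whether these levels reflect different cell types, and their part in the results below, was not tested. In these bulk samples fewer cells of a type and less RNA per cell cannot be told apart.

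A gene was called where the ratio of Δ*mak-1* to Δ*mak-2* was above 2 or below 0.5. By this rule 652 genes were called (10.4%), of which 460 were higher in Δ*mak-1* (7.31% of the genes compared) and 192 were lower (3.05%), while 5640 differed by less. The median ratio was 1.04, which is 0.05 on the log2 scale, and the quartiles lay at 0.852 and 1.29. Larger differences were mostly on the higher side, with 136 genes past 4-fold and 55 past 10-fold higher in Δ*mak-1*, and 26 and 6 genes that far lower. The mutants were represented by 3668046 mapped reads (Δ*mak-1*) and 3371962 (Δ*mak-2*), and the median gene compared had 217 reads in Δ*mak-1* and 186 in Δ*mak-2*. Reads per gene were recovered from the steps of the RPKM values, and the range after each ratio is its exact 95% interval (Clopper-Pearson). These intervals hold counting error only and say nothing of the spread between cultures. Where the whole interval had to pass the threshold, 251 genes were higher (3.99%) and 85 lower (1.35%).

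**Figure D1:**
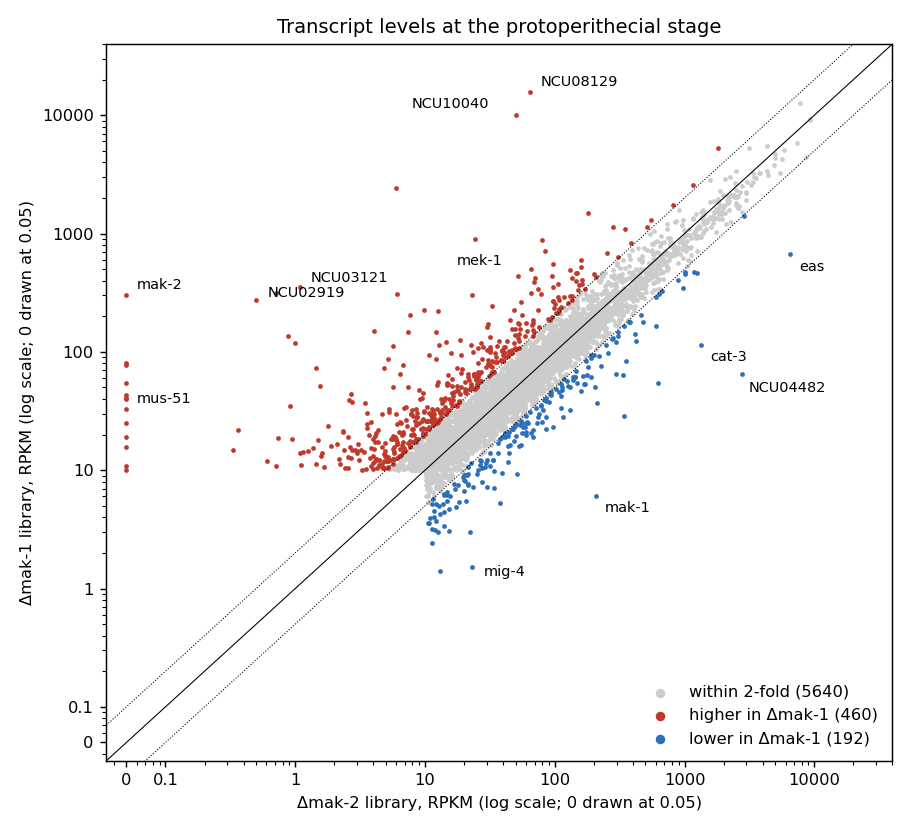
RPKM in the Δ*mak-1* library (vertical axis) against the Δ*mak-2* library (horizontal axis) at the protoperithecial stage, both on log scales with 0 drawn at 0.05. Each point is 1 of the 6292 genes, dotted lines mark 2-fold, and the 460 genes higher in Δ*mak-1* reach farther from the diagonal than the 192 lower ones.

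The deleted genes themselves were checked first. *mak-2* (NCU02393) had 303 RPKM in Δ*mak-1* and no read in Δ*mak-2*, against 586 RPKM in the wild type. *mak-1* (NCU09842, listed under its older tag NCU11376) had 6.08 RPKM, or 52 reads, in Δ*mak-1* and 208 RPKM in Δ*mak-2*, against 148 RPKM in the wild type. Its annotated span overlaps that of the next gene, NCU09843, which had many reads in Δ*mak-1* (described with its neighbours), and since no source states whether reads were counted by strand, the reads of the 2 genes cannot be told apart. The study itself lists no transcript of *mak-1* in Δ*mak-1*. Set beside the wild type, the remaining kinase gene had 0.517 times (0.481 to 0.556) the wild-type level in Δ*mak-1* (*mak-2*) and 1.41 times (1.31 to 1.52) in Δ*mak-2* (*mak-1*). These are RNA levels. In its Western blots the study detected no MAK-1 protein in Δ*mak-2*, and slightly less MAK-2 protein in Δ*mak-1* protoperithecial samples.

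A further gene separated the 2 strains as sharply as a deletion. *mus-51* (NCU08290), which encodes a homologue of the Ku70 protein of DNA end joining, had 40.9 RPKM (292 reads) in Δ*mak-1* and no read in Δ*mak-2*, against 16.4 RPKM in the wild type. With a floor of 3 reads it was at least 89.5-fold higher in Δ*mak-1*. In vegetative hyphae it had 139 reads in Δ*mak-1* and again none in Δ*mak-2*, against 77 in the wild type. Knockout strains of *N. crassa* are commonly made in recipients that lack *mus-51* or *mus-52*, and the labels name only the *mak-2* deletion for this strain. *mus-52*, which encodes the Ku80 homologue, had 16 reads in Δ*mak-1*, 20 in Δ*mak-2* and 28 in the wild type. The DNA ligase gene *mus-53* of the same repair route had 30.2 RPKM in Δ*mak-1*, 10.7 in Δ*mak-2* and 11.9 in the wild type, a ratio of 2.83 (2.28 to 3.53). The part of the *mus-51* difference in the other results was not tested.

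Of the 3 MAP kinase pathways, CWI had the most genes called. Of its 8 listed genes 6 were above 10 RPKM, with a median ratio of 2.42, against 1.04 over all genes. That median counts the deleted *mak-1*. Of the 6 genes 4 were higher in Δ*mak-1* and 1, *mak-1*, lower, against 7.31% and 3.05% of all genes. After scaling by the median of ratios 3 were higher, and at a fold of 3 only 1, *mek-1*. Besides *mak-1* itself, those past the threshold included *mek-1*, *pkc* and *ham-7*, all 3 higher in Δ*mak-1*. *mek-1*, which encodes the MAP kinase kinase directly above MAK-1, had 440.2 RPKM in Δ*mak-1*, 52.5 in Δ*mak-2* and 55.6 in the wild type. Its ratio was 8.39 (7.44 to 9.48), and Δ*mak-2* stood close to the wild type. The gene *pkc*, which encodes protein kinase C, had 17.4 RPKM in Δ*mak-1*, 6.05 in Δ*mak-2* and 8.48 in the wild type, a ratio of 2.88 (2.19 to 3.82).

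At the top of the same pathway, *ham-7*, which encodes a cell wall sensor that is also needed for cell fusion, had 267 RPKM in Δ*mak-1*, 97.3 in Δ*mak-2* and 64.1 in the wild type, a ratio of 2.74 (2.41 to 3.12). The sensor gene *wsc-1* was within 2-fold with 312 RPKM in Δ*mak-1* and 257 in Δ*mak-2*. The exchange factor gene *rgf1* and the upper kinase gene *mik-1* stayed below 10 RPKM in both.

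The PR pathway showed no such difference apart from *mak-2*. Of its 7 entries 6 were above 10 RPKM, with a median ratio of 1.08 that counts the deleted *mak-2*. *nrc-1*, which encodes the uppermost kinase, had 28.5 RPKM in Δ*mak-1*, 19.4 in Δ*mak-2* and 45.1 in the wild type. *mek-2*, the middle kinase gene, had 55.5 RPKM in Δ*mak-1* and 54.3 in Δ*mak-2*, a ratio of 1.02 (0.905 to 1.15). The kinase gene *stk-4* of the same list was below 10 RPKM in both. The scaffold gene *ham-5* stands in the table as 2 entries, and the one listed here (NCU11226) had a ratio of 1.01 (0.859 to 1.18). Downstream transcription factors were within 2-fold too. *pp-1*, the counterpart of yeast Ste12, had a ratio of 1.14 (1.0 to 1.30), and *adv-1* had 61.1 RPKM in Δ*mak-1* and 84.1 in Δ*mak-2*, a ratio of 0.726 (0.659 to 0.799).

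The osmosensing (OS) pathway, the third MAP kinase cascade of this fungus, had a median ratio of 1.41 over 6 genes. Only *os-5* passed the threshold, and none did after scaling by the median of ratios. It had 68.2 RPKM in Δ*mak-1*, 33.8 in Δ*mak-2* and 23.1 in the wild type. Its ratio of 2.02 (1.75 to 2.33) was 1.90 after scaling by the median of ratios. *os-4*, another kinase gene of the cascade, had 31.5 RPKM in Δ*mak-1*, 21.0 in Δ*mak-2* and 8.49 in the wild type. *os-2*, the MAP kinase gene itself, had a ratio of 0.987 (0.906 to 1.07). The sensor kinase gene *os-1*, the phosphotransfer gene *hpt-1* and the response regulator gene *rrg-1* had ratios of 1.37, 1.13 and 1.45, all within 2-fold.

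**Figure D2:**
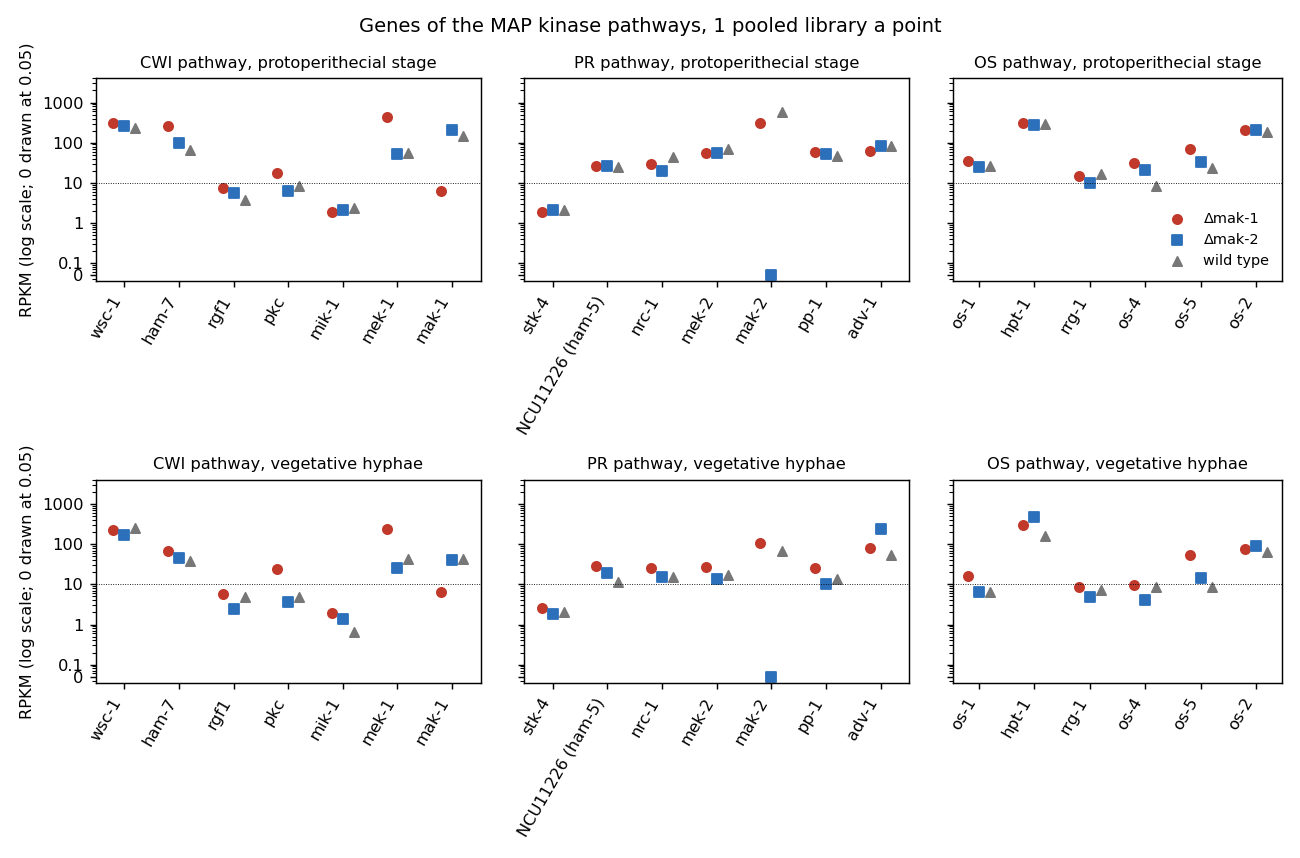
RPKM (log scale, 0 drawn at 0.05) of genes of the CWI, PR and OS pathways in Δ*mak-1*, Δ*mak-2* and the wild type, at the protoperithecial stage (upper row) and in vegetative hyphae (lower row). Each point is 1 pooled library and the dotted line is 10 RPKM. *mek-1* stands out at 440.2 RPKM in Δ*mak-1*, against 52.5 RPKM in Δ*mak-2*.

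Of 11 cell fusion genes above 10 RPKM 1 was called, a share near the 10.4% of all genes, with a list median of 0.960. That gene was *nox-1*, which encodes an NADPH oxidase required for fusion and fruiting bodies, with 17.2 RPKM in Δ*mak-1*, 8.03 in Δ*mak-2* and 4.74 in the wild type. *so*, *ham-2*, *ham-3*, *ham-4* and *mob-3* had ratios of 0.840 to 1.35. None of 6 genes for pheromone receptors and G proteins was called, and their median was 1.11. The receptor gene *pre-2* had 15.2 RPKM in Δ*mak-1*, 9.24 in Δ*mak-2* and 2.67 in the wild type, a ratio of 1.65 (1.17 to 2.35).

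A few genes of sexual development were called, in both directions. The study drew this list from these same libraries for its difference from the wild type. Of its 23 genes above 10 RPKM 3 were higher in Δ*mak-1* and 3 lower (2 after scaling by β-tubulin), with a median of 1.0. *ty-6*, which encodes a tyrosinase, had 172 RPKM in Δ*mak-1*, 30.8 in Δ*mak-2* and 434 in the wild type, a ratio of 5.58 (4.57 to 6.87). *fsd-1*, which encodes a transcription factor of female development, had 74.6 RPKM in Δ*mak-1*, 29.3 in Δ*mak-2* and 178 in the wild type, a ratio of 2.55 (2.19 to 2.97). For both genes the level in Δ*mak-1* lay between those of Δ*mak-2* and the wild type. The same order held for *dfp-1*, with 26.6 RPKM in Δ*mak-1*, 7.15 in Δ*mak-2* and 250.3 in the wild type, a ratio of 3.72 (2.26 to 6.41).

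The intermediate level was that of Δ*mak-2* for *ods*, with 290.0 RPKM in Δ*mak-1*, 599 in Δ*mak-2* and 2350 in the wild type. Its ratio was 0.484 (0.443 to 0.529) and 0.501 after scaling by β-tubulin. *pfd-2* rested on 5 reads in Δ*mak-1* and 19 in Δ*mak-2*, a ratio of 0.242 (0.0706 to 0.670). The lower genes of this list also included *eas*, described with the conidiation genes. In the melanin pathway, whose polyketide pigment colours the protoperithecium, 1 of 5 genes was called. This list too was drawn by the study from these libraries. *scy-1*, the scytalone dehydratase gene, had 268 RPKM in Δ*mak-1*, 97.2 in Δ*mak-2* and 489 in the wild type, a ratio of 2.76 (2.32 to 3.30). The polyketide synthase gene *per-1* and the reductase genes *tnr-1* and *tnr-2* had ratios of 0.642, 0.937 and 0.934, and *mld-1*, the regulator gene of the pathway, was below 10 RPKM in both mutants.

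Conidiation genes included the gene that, of all those lower in Δ*mak-1*, had the highest level in Δ*mak-2*. *eas*, which encodes the hydrophobin of the water-repellent rodlet layer of conidia, had 667 RPKM in Δ*mak-1*, 6465 in Δ*mak-2* and 61.9 in the wild type. Its ratio was 0.103 (0.0983 to 0.108), and both mutants lay above the wild type. Of 14 conidiation genes 3 were lower (4 after the same scaling by the median of ratios) and 1 higher, with a median of 0.870. *con-6*, a conidiation gene, had 471 RPKM in Δ*mak-1*, 1177 in Δ*mak-2* and 43.1 in the wild type, a ratio of 0.400 (0.373 to 0.429). The clock-controlled gene *ccg-14* had 121 RPKM in Δ*mak-1*, 295 in Δ*mak-2* and 129 in the wild type, a ratio of 0.411 (0.366 to 0.461).

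Other conidial genes did not follow *eas*. *con-10* had 12747 RPKM in Δ*mak-1*, 7703 in Δ*mak-2* and 402 in the wild type, a ratio of 1.65 (1.62 to 1.69). *con-8* had a ratio of 1.13 (1.10 to 1.17), and *fl*, the regulator gene of conidiophore development, one of 0.744 (0.629 to 0.879). *ccg-9*, which encodes trehalose synthase, had 494 RPKM in Δ*mak-1*, 130.1 in Δ*mak-2* and 283 in the wild type, a ratio of 3.79 (3.55 to 4.05). None of 16 genes of the light response and the clock was called, with a median of 0.996. Among them, the carotenoid gene *al-1* had 5107 RPKM in Δ*mak-1*, 5878 in Δ*mak-2* and 71.3 in the wild type.

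Of the carbon metabolism lists, the short one of the glyoxylate cycle and gluconeogenesis is given first. Among the glyoxylate cycle and gluconeogenesis genes 2 of 5 were lower in Δ*mak-1* (3 after scaling by the median of ratios) and none higher, with a median of 0.520. *acu-6*, which encodes phosphoenolpyruvate carboxykinase, had 9.23 RPKM in Δ*mak-1*, 51.3 in Δ*mak-2* and 38.9 in the wild type, a ratio of 0.180 (0.138 to 0.232). *acu-9*, which encodes malate synthase, had 22.2 RPKM in Δ*mak-1*, 85.1 in Δ*mak-2* and 108 in the wild type, a ratio of 0.261 (0.219 to 0.309). The other 3 genes lay on the same side without passing the threshold. Ratios were 0.742 for the isocitrate lyase gene *acu-3*, 0.741 for the acetyl-CoA synthetase gene *acu-5* and 0.520 for the fructose bisphosphatase gene *fbp-1*. In vegetative hyphae 2 of 4 genes of this list were higher in Δ*mak-1* and none lower, with a median of 1.73 (1.25 over all genes).

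Of 24 genes of cellulose and xylan breakdown 1 was higher, 1 was lower (3 after scaling by the median of ratios or the upper quartile), and the median was 0.814. *cbh-1*, the cellobiohydrolase gene used here as a marker of hyphae growing on cellulose, had 4454 RPKM in Δ*mak-1*, 8597 in Δ*mak-2* and 6569 in the wild type, a ratio of 0.518 (0.510 to 0.526). The xylanase gene *gh10-2* had 179 RPKM in Δ*mak-1*, 379.8 in Δ*mak-2* and 92.3 in the wild type, a ratio of 0.472 (0.432 to 0.516). *gh61-3*, a polysaccharide monooxygenase gene, went the other way, with 1088 RPKM in Δ*mak-1*, 348 in Δ*mak-2* and 289.8 in the wild type, a ratio of 3.12 (2.93 to 3.33). Among all 53 glycoside hydrolase genes above 10 RPKM 7 were higher and 4 lower (5 and 5 after scaling by the median of ratios), with a median of 1.0. *gh76-5*, of a mannanase family that acts on the fungal wall, had 73.2 RPKM in Δ*mak-1*, 4.86 in Δ*mak-2* and 45.5 in the wild type, a ratio of 15 (10.6 to 22.1). In the opposite direction the chitinase gene *gh18-4* had 9.39 RPKM in Δ*mak-1*, 39.5 in Δ*mak-2* and 9.98 in the wild type, a ratio of 0.238 (0.168 to 0.330). The trehalase gene *tre-1* was the only 1 of 11 genes of starch and sucrose metabolism to be called, with 109 RPKM in Δ*mak-1*, 31.6 in Δ*mak-2* and 26.7 in the wild type.

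Of 16 genes of cell wall synthesis 2 were higher in Δ*mak-1* and none lower, with a median of 1.05. With so few genes this share is near that of all genes (7.31% higher). The chitin synthase genes *chs-1*, *chs-3* and *chs-4* had ratios of 1.22, 1.04 and 1.19, and *gs-1*, a glucan synthase gene, had 1.05 (0.914 to 1.20). *acw-10*, which encodes an anchored wall protein, had 406 RPKM in Δ*mak-1*, 162 in Δ*mak-2* and 171 in the wild type, a ratio of 2.51 (2.29 to 2.75). *gel-4*, which encodes a glucan transferase, had 18.2 RPKM in Δ*mak-1*, 8.54 in Δ*mak-2* and 37.1 in the wild type, a ratio of 2.13 (1.52 to 3.02).

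In the oxidative stress list *cat-3*, which encodes a large-subunit catalase, was the only 1 of 5 genes called. It had 115 RPKM in Δ*mak-1*, 1338 in Δ*mak-2* and 331 in the wild type, a ratio of 0.0857 (0.0804 to 0.0914). The 2 mutants thus lay on either side of the wild type. The other catalase genes did not share this difference, with ratios of 0.722 for *cat-1* and 1.46 for *cat-2*. Of 6 genes of nitrogen regulation only *nit-10*, the nitrate transporter gene, was called, at a ratio of 0.483 (0.457 to 0.511), and it no longer passed the threshold after scaling by β-tubulin.

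**Figure D3:**
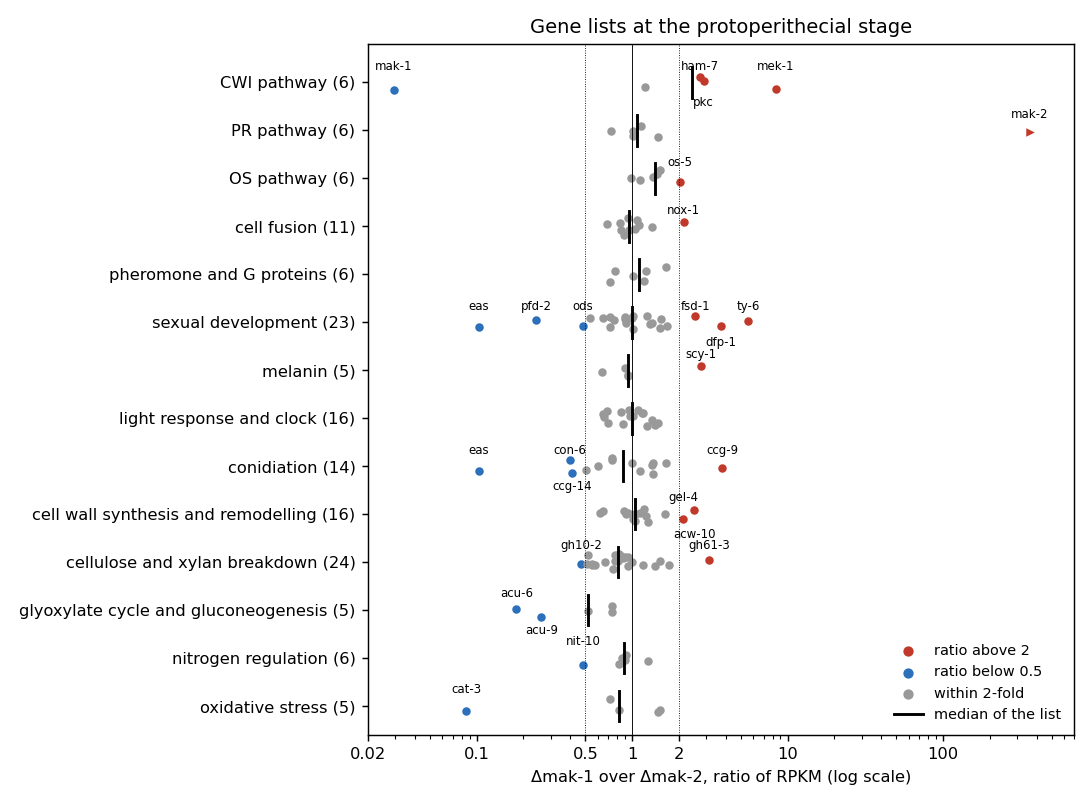
Ratio of Δ*mak-1* to Δ*mak-2* (log scale) of the genes above 10 RPKM in each of 14 gene lists, with their number beside the name (1 gene of the CWI list is not drawn). Points past 2-fold are named and coloured, short black lines are list medians, the triangle is a lower bound for *mak-2*, and only the CWI list has its median (2.42) past 2-fold.

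Over the 14 lists 147 of 173 different genes were above 10 RPKM, and 15 of these were higher in Δ*mak-1* and 11 lower. The deleted genes *mak-2* and *mak-1* are among them. Over all genes compared 7.31% were higher and 3.05% lower, and the list counts above are to be read beside these shares. Of the large housekeeping groups no gene was called among 85 ribosome genes (median 0.852), 35 of ribosome biogenesis (1.01), 29 of oxidative phosphorylation (0.823), 31 of the proteasome (0.860) or 54 of the spliceosome (1.03). In wider annotation groups, response to light stimulus had 19 genes higher and 13 lower of 302 (median 0.951), or 14 higher and 20 lower after scaling by the median of ratios. Sporocarp development had 7 higher, among them the deleted *mak-2*, and 1 lower of 60 (median 1.12). After the same scaling 6 were higher and 1 lower. Of 8 genes described as MFS or sugar transporters 3 were higher (2 after scaling by the median of ratios), among them NCU00821 with 52.1 RPKM in Δ*mak-1*, 14.7 in Δ*mak-2* and 52.8 in the wild type.

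Annotation was counted next. A GO or KEGG term was attached to 76 of the 460 genes higher in Δ*mak-1* (16.5%) and to 54 of the 192 lower genes (28.1%), compared with 1989 of the 5640 genes within 2-fold (35.3%). Their median length was 1251 bases for the higher and 1179 bases for the lower genes, compared with 1371 bases for those within 2-fold. Among the 15 genes with the highest ratios, taken apart from *mak-1* and *mak-2* where at least 50 reads stood in the higher library, only 2 had such a term.

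With *mak-1* and *mak-2* set apart, the 15 highest ratios belonged to genes with at least 18.9 RPKM in Δ*mak-1* and at most 63.9 RPKM in Δ*mak-2*. NCU08129 had 15816 RPKM in Δ*mak-1*, 63.9 in Δ*mak-2* and 6728 in the wild type, a ratio of 248 (183 to 344). NCU10040 had 10051 RPKM in Δ*mak-1*, 50.2 in Δ*mak-2* and 576 in the wild type, a ratio of 200.4 (163 to 249). These 2 were the most abundant of all called transcripts in Δ*mak-1*. NCU05788 had 2405 RPKM in Δ*mak-1*, 5.99 in Δ*mak-2* and 828 in the wild type, a ratio of 401 (184 to 1095). NCU03121 had 352 RPKM in Δ*mak-1*, 1.09 in Δ*mak-2* and 4.11 in the wild type, a ratio of 323 (176 to 675). All 15, which leave out *mak-2*, had the wild type between the 2 mutants, a place made likely by choosing the highest ratios. The distances differed, since NCU08129 in the wild type was nearer to Δ*mak-1* and NCU03121 nearer to Δ*mak-2*.

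The other members of this set had 0 to 10 reads in Δ*mak-2*. NCU08680 had 474 reads in Δ*mak-1*, 1 in Δ*mak-2* and 15 in the wild type, a ratio of 436 with a wide interval (77.8 to 17247). NCU05030 had 299 reads in Δ*mak-1*, none in Δ*mak-2* and 9 in the wild type, and was at least 91.6-fold higher. NCU09171 had 142 reads in Δ*mak-1*, none in Δ*mak-2* and 97 in the wild type, and was at least 43.5-fold higher. Among genes with a symbol *T*, which encodes tyrosinase, had 21.8 RPKM in Δ*mak-1*, 0.364 in Δ*mak-2* and 2.42 in the wild type, a ratio of 59.8 (16.2 to 499). *lacc*, the laccase gene, had 86.4 RPKM in Δ*mak-1*, 5.16 in Δ*mak-2* and 15.7 in the wild type, a ratio of 16.8 (12.2 to 23.6). The set also held NCU01071, NCU11309, B15B24.110 and members of the gene run described next.

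The 15 lowest ratios, with *mak-1* again set apart, included *cat-3*, *eas* and *acu-6* described above. NCU04482 had the lowest, with 64.8 RPKM in Δ*mak-1*, 2761 in Δ*mak-2* and 525 in the wild type, a ratio of 0.0235 (0.0207 to 0.0265). *mig-4* had 1.52 RPKM in Δ*mak-1*, 23.2 in Δ*mak-2* and 1.21 in the wild type, a ratio of 0.0657 (0.0257 to 0.140). NCU05126 had 54.9 RPKM in Δ*mak-1*, 621 in Δ*mak-2* and 229.6 in the wild type, a ratio of 0.0883 (0.0766 to 0.101). NCU04482 and NCU05126 were like *cat-3* in lying below the wild type in Δ*mak-1* and above it in Δ*mak-2*. NCU07311 differed from these, with 28.9 RPKM in Δ*mak-1*, 342 in Δ*mak-2* and 499.8 in the wild type, a ratio of 0.0845 (0.0693 to 0.102). NCU00852, NCU01058, NCU01633, NCU02390, NCU02600, NCU08397, NCU08976 and NCU09173 completed this set, at ratios from 0.135 to 0.236. In 8 of the 15 the wild type lay between the mutants, in 5 below both and in 2 above both.

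Neighbours on the chromosomes were examined because genes called the same way lay side by side. Of 435 higher genes with a place in the RefSeq order of assembly NC12, 100 (23.0%) had a next-door gene that was also higher, while of all 6150 placed genes above 10 RPKM 499 (8.11%) had such a neighbour. For the lower genes these were 28 of 180 (15.6%) and 225 of 6150 (3.66%). Runs of 3 or more neighbours numbered 10 on the higher side, with 40 genes, and 2 on the lower side, with 6 genes. The higher runs depended on the scaling, with 24 genes in 6 runs after scaling by the median of ratios, an alternative chosen after seeing the data. The genes called were spread over all 7 chromosomes, from 6.14% (I) to 7.81% (IV) on the higher side and from 1.46% (II) to 5.05% (VI) on the lower side.

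The longest run held 7 neighbouring genes on chromosome I, from *fbm-1* (NCU02925) to NCU02919, with 14 to 272 RPKM in Δ*mak-1* and 0 to 1.61 RPKM in Δ*mak-2*, against 0.396 to 58.9 RPKM in the wild type. *fbm-1*, whose best database match is a protein that binds FAD and NAD(P), had 137 RPKM in Δ*mak-1*, 0.881 in Δ*mak-2* and 3.82 in the wild type, a ratio of 156 (60.6 to 574). NCU02919, at the other end, had 590 reads in Δ*mak-1*, 1 in Δ*mak-2* and 115 in the wild type, a ratio of 542 (97.0 to 21459). NCU02921, NCU02922 and NCU02923 had no read in Δ*mak-2* and 176, 128 and 122 reads in Δ*mak-1*. NCU02920, NCU02922 and NCU02923 best match NAD(P)-binding proteins, so that their reads could be shared where their sequences are alike. In vegetative hyphae none of the 7 genes reached 10 RPKM in either mutant.

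Further runs of 5 genes lay on chromosomes IV (NCU09635 to NCU09639, with the polyketide synthase gene *pks-5*), V (NCU07203 to NCU07199) and VII (NCU09570 to NCU09566). The middle genes of the first 2, NCU09637 (2.02) and NCU07201 (2.06), had ratios of 1.90 and 1.94 after scaling by the median of ratios, and neither run then held 3 neighbours. *pks-5* had 20.8 RPKM in Δ*mak-1*, 9.70 in Δ*mak-2* and 7.72 in the wild type, a ratio of 2.14 (1.85 to 2.49). In the run on chromosome VII, NCU09568 had 44.0 RPKM in Δ*mak-1*, 2.71 in Δ*mak-2* and 287 in the wild type, a ratio of 16.2 (9.10 to 31.9). The wild type was thus above both mutants there and below both for *pks-5*. A run of 3 genes (NCU09847, NCU09848, NCU09851) lay a few genes from *mak-1* on chromosome V, with 10.9 to 31.3 RPKM in Δ*mak-1*, 0 to 14.8 in Δ*mak-2* and 0 to 17.5 in the wild type.

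The genes next to the deletions were examined for themselves, because a gene replacement can alter its surroundings. NCU09843, next to *mak-1*, had 987 reads in Δ*mak-1*, 169 in Δ*mak-2* and 79 in the wild type, a ratio of 5.37 (4.56 to 6.36). In vegetative hyphae it had 751 RPKM in Δ*mak-1*, 3.13 in Δ*mak-2* and 2.07 in the wild type, a ratio of 239.8 (145 to 429). The gene on the other side of *mak-1*, NCU09841, had a ratio of 1.01 (0.939 to 1.09). Around *mak-2* the nearest neighbours were low, with 3.83 RPKM (NCU02394) and 6.88 RPKM (NCU02391) in Δ*mak-1* and 1.67 and 10.3 RPKM in Δ*mak-2*. The 3 genes beyond NCU02394 formed a run that was lower in Δ*mak-1* than in Δ*mak-2*, with ratios of 0.476 (0.391 to 0.576) for NCU02395, 0.400 (0.299 to 0.532) for NCU02396 and 0.403 (0.338 to 0.479) for *ilv-5*. NCU02395 had 1.05 times the wild-type level in Δ*mak-1* and 2.22 times in Δ*mak-2*. For NCU02396 these were 1.05 and 2.62 times, and for *ilv-5* 0.505 and 1.25 times. NCU02390, on the other side, had 64.0 RPKM in Δ*mak-1*, 336 in Δ*mak-2* and 124 in the wild type, a ratio of 0.191 (0.146 to 0.245). Whether these differences follow from the gene replacements was not tested.

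**Figure D4:**
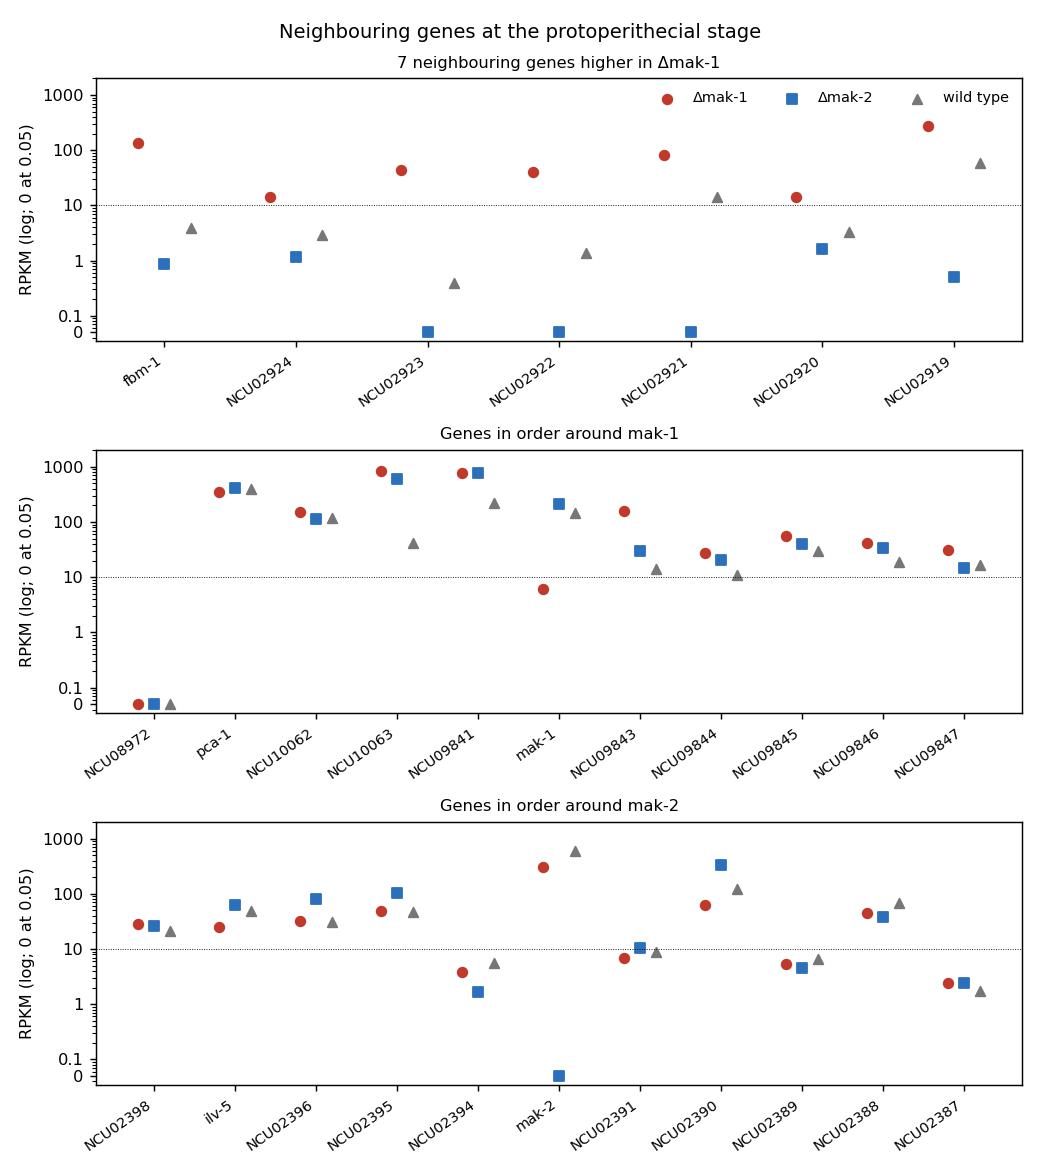
RPKM (log scale, 0 drawn at 0.05) at the protoperithecial stage in Δ*mak-1*, Δ*mak-2* and the wild type for neighbouring genes in their chromosomal order. The upper panel shows the 7 genes from *fbm-1* to NCU02919, all at most 1.61 RPKM in Δ*mak-2*, and the lower panels show the genes around *mak-1* and *mak-2*.

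The wild-type library was then set beside the called genes. The rule chose genes with a wide gap between the mutants, so a wild type between them is more likely by that choice. The same share over all genes was not counted, and the gap between the mutant medians below follows from the rule. For 239 of the 460 genes higher in Δ*mak-1* (52%) the wild type lay between the mutants, for 102 (22.2%) above both and for 119 (25.9%) below both. The median level of the 460 genes was 40 RPKM in Δ*mak-1*, 11.8 in Δ*mak-2* and 24.2 in the wild type. For the 192 lower genes the wild type lay between the mutants in 74 (38.5%), above both in 54 (28.1%) and below both in 64 (33.3%), with medians of 23.0 RPKM in Δ*mak-1*, 59.1 in Δ*mak-2* and 39.6 in the wild type.

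The same contrast in vegetative hyphae used other libraries of the same strains. There 1178 of 5282 genes were called (22.3%), of which 834 (15.8%) were higher in Δ*mak-1* and 344 (6.51%) lower, with a median ratio of 1.25, or 0.32 on the log2 scale. This shift weighs on the split between the directions, since scaling by the median of ratios gave 398 higher and 590 lower genes, so that the share of higher genes among those called was 40.3% in place of 70.8%. Of the 460 genes higher at the protoperithecial stage 243 were above 10 RPKM in the vegetative comparison, and of these 130 (53.5%) were higher there as well and 16 (6.58%) lower. Of the 192 lower genes 128 were above 10 RPKM in vegetative hyphae, and 53 (41.4%) were lower there as well and 15 (11.7%) higher.

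*mek-1* was among the genes that kept their difference, with 238 RPKM in Δ*mak-1* and 26.1 in Δ*mak-2* in vegetative hyphae, against 41.9 RPKM in the wild type, a ratio of 9.12. *eas* had 2504 RPKM in Δ*mak-1*, 47036 in Δ*mak-2* and 703 in the wild type, a ratio of 0.0532 (0.0519 to 0.0546). *gh76-5* and NCU10040 were higher at both stages too, with vegetative ratios of 23.5 and 82.9. In contrast *cat-3* had 37.9 RPKM in Δ*mak-1*, 60.9 in Δ*mak-2* and 355 in the wild type, a ratio of 0.623 (0.538 to 0.722), within 2-fold. NCU04482 had 12.4 RPKM in Δ*mak-1*, 13.3 in Δ*mak-2* and 2.33 in the wild type, and its large difference was seen at the protoperithecial stage alone. Medium, temperature and age changed together between the 2 stages and cannot be told apart.

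**Figure D5:**
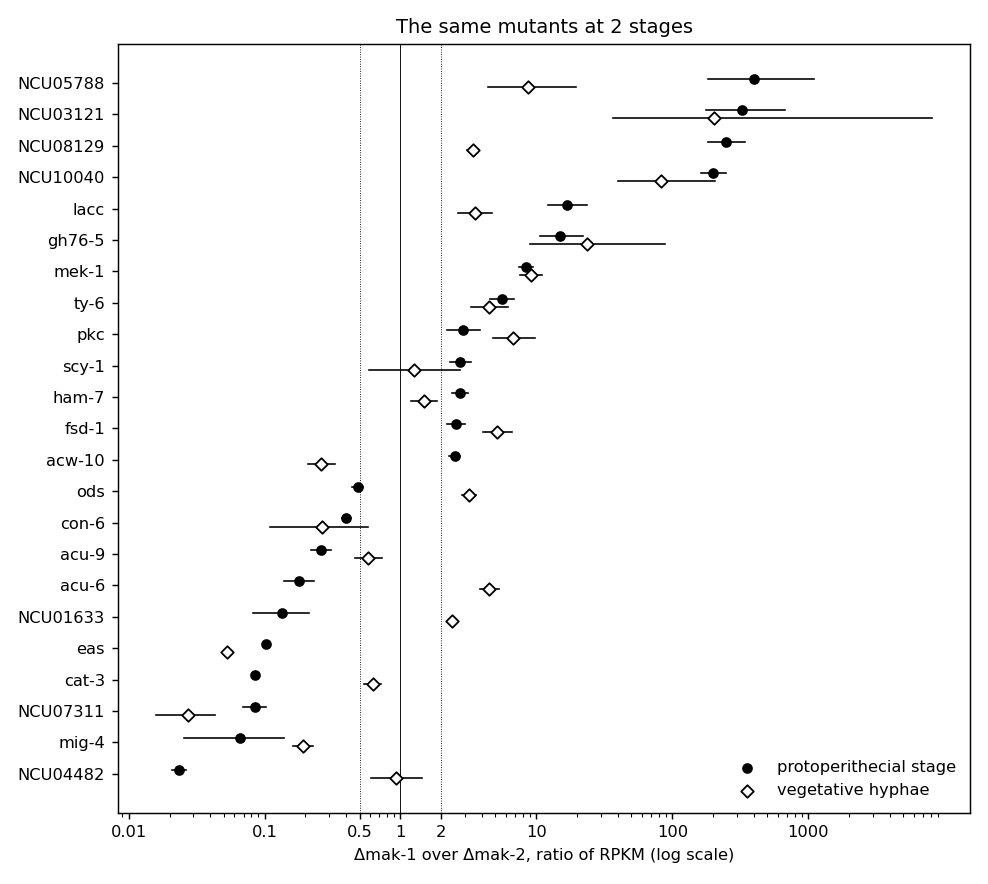
Ratio of Δ*mak-1* to Δ*mak-2* (log scale) of selected genes at the protoperithecial stage (filled circles) and in vegetative hyphae (open diamonds), with lines for exact 95% counting intervals and dotted lines at 2-fold. *mek-1* has a ratio of 8.39 at the protoperithecial stage and 9.12 in vegetative hyphae, while *acu-6*, *acw-10*, *ods* and NCU01633 lie on opposite sides of 1.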

How the data were processed

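RNA of 3 strains (Δ*mak-1*, Δ*mak-2*, wild type) was sequenced at 2 stages, as 6 single-end libraries, each of mixed RNA from 3 repeats. RPKM, a gene's reads scaled by exon length and library size, is the unit the authors deposited. CASAVA 1.8 stands in the submitters' processing notes, while aligner, counter and genome build were not given in the sources used here. Ratio columns made by the authors stayed unused.

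Reads were recovered from the steps of the RPKM values for the 8913 entries above 0 in 2 or more libraries, whole within a relative tolerance of 1e-08. Of the recovered lengths 85.3% were multiples of 3, so most, but not all, are coding lengths. Mapped reads ranged from 2602076 to 3668046. Recovery, calls and intervals were tested on simulated data. A call needed a ratio above 2 or below 0.5 and over 10 RPKM on at least 1 side, without a pseudocount, after the study's thresholds. With 1 library a side no test was possible. Near the minimum, 165 genes had at most 11 RPKM (median ratio 1.17), and 163 entries with 9 to 10 RPKM were left out (median 1.13). A bound against 0 uses a floor of 3 reads.

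Names and neighbours came from RefSeq (NC12). Locus tags matched 8976 entries, older tags 185, and 711 had no match. Listed genes that RefSeq did not give under their name were dropped. Genes named are those of the MAP kinase lists, list members called, the 15 highest and 15 lowest ratios with at least 50 reads (*mak-1* and *mak-2* set apart), the 5 highest and 5 lowest with a symbol, and neighbours of the deleted genes. The others, *mus-52*, *mus-53*, the genes of other runs and members within 2-fold, were chosen after their values were seen. Members and lists were chosen with earlier results of these data known. Not every gene these rules name is reported here. Promoter and protein sequences were not analysed here. Alternatives were other scalings, folds, RPKM minimums, 1 RPKM added, the whole interval, NCU loci only and a gap between neighbours. Scripts ran in Python 3.11.15 with numpy 2.4.6, scipy 1.17.1, pandas 2.3.3 and, for plots, matplotlib 3.10.9.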

Additional observations from a re-analysis of the deposited data

Results flagged for a closer look

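Between the 2 stages 31 genes were called in opposite directions, 16 higher in the Δ*mak-1* mutant at the protoperithecial stage and lower in vegetative hyphae, and 15 the other way round. The report names 4 of them, and the difference between the stages was not tested. *acu-6* had a ratio of Δ*mak-1* to Δ*mak-2* of 0.180 at the protoperithecial stage and of 4.51 (3.86 to 5.28) in vegetative hyphae, where it had 144 RPKM in Δ*mak-1* and 32 in Δ*mak-2*. Scaled by the median of ratios, the upper quartile or β-tubulin, its vegetative ratio was 3.62, 3.71 or 2.55. *acw-10* had a ratio of 2.51 at the protoperithecial stage and of 0.262 (0.209 to 0.327) in vegetative hyphae, where the scalings gave 0.149 to 0.216. *ods* had a ratio of 0.484 at the protoperithecial stage and of 3.19 (2.85 to 3.59) in vegetative hyphae, which was 1.81 with β-tubulin set equal. NCU01633 had a ratio of 0.135 at the protoperithecial stage and of 2.41 (2.35 to 2.47) in vegetative hyphae, but under 2 with each scaling, at 1.94, 1.98 and 1.37.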

How the results depend on the processing

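The 3 scalings, an RPKM minimum of 20, 1 RPKM added and NCU loci only gave 341 to 500 higher and 157 to 223 lower genes at the protoperithecial stage, within 1.5 times of 460 and 192. A fold of 1.5 gave 944 and 509, a fold of 3 gave 206 and 56, an RPKM minimum of 1 gave 924 and 405, no minimum 1161 and 558, and the whole interval 251 and 85. In vegetative hyphae the median of ratios gave 398 higher and 590 lower genes in place of 834 and 344, a fold of 1.5 gave 1834 and 674, a fold of 3 gave 259 and 168, and an RPKM minimum of 1 gave 1477 and 731. Of the list members 25 were higher and 26 lower at a fold of 1.5, and 6 and 6 at a fold of 3. With at most 1 other gene between neighbours 65 higher genes in 17 runs stood in runs of 3 or more. Chosen after seeing the data, scaling by the median of ratios gave 24 in 6 runs, the upper quartile 30 in 8 and β-tubulin 41 in 10. The protoperithecial scalings were too small (factors of 0.966 to 1.06) to turn a called ratio of a named gene to the other direction. Named genes near the threshold did lose their call under some scaling, among them *os-5*, *ods* and *nit-10*. The cause of these changes was not tested beyond the settings themselves. No paired analysis was possible because each condition is 1 library. With 1 library a side the spread between cultures is unknown and low genes rest on few reads.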

Other observations

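Genes of vitamin B6 synthesis were also apart in the 2 mutants. *pdx-1* had 460.2 RPKM in Δ*mak-1*, 1248 in Δ*mak-2* and 539 in the wild type, a ratio of 0.369 (0.350 to 0.388). *pdx-2*, the partner gene, had 53.5 RPKM in Δ*mak-1*, 169 in Δ*mak-2* and 47.1 in the wild type, a ratio of 0.316 (0.271 to 0.368). For both, Δ*mak-1* stood nearer to the wild type than Δ*mak-2* did. *inl*, the gene of inositol synthesis, had 142 RPKM in Δ*mak-1*, 417 in Δ*mak-2* and 1013 in the wild type, a ratio of 0.341 (0.319 to 0.364). In vegetative hyphae *pdx-1* was lower in Δ*mak-1* as well, at a ratio of 0.438, while *pdx-2* (0.593) and *inl* (1.6) were within 2-fold. These genes were picked after their values were seen.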
